A study of Drosophila melanogaster with 48 samples.

Results

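The genes described here are 75 Drosophila genes that carry only a CR number, the prefix that FlyBase gives to genes annotated as not coding for a protein. They were taken from a table of reads per gene by their symbol (CR and 4 or 5 digits, nothing more) and by a summed count of 240 or more over 48 fly brain libraries. The table held 2385 such CR genes among 16995 genes, and 1700 of the CR genes had no count in any library. The 75 genes held 91.3% of all counts on CR genes. The genes were thus chosen by their summed counts over the same libraries, and their levels are given as a description. On either side of the limit stood CR43887 with 238 counts and CR45982 and CR45670 with 235 each, below it, and CR44081 with 240 and CR44599 with 248 counts, above it. CR45417 was named in the selection with earlier results of these data known, so its values are not independent evidence.

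Long noncoding RNAs are transcripts with no long open reading frame, and many in flies are polyadenylated and spliced like messenger RNAs. Some act through their RNA, as the roX RNAs do in dosage compensation of the male X chromosome, others are precursors that are cut into microRNAs, and for most numbered CR genes no function is known. Neurons and glia of the fly brain express many of them at low levels.

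The samples were single brains of adult mated flies, 10 to 14 days old, from libraries labelled Tau-KO or from w1118, a strain with a mutation in the white gene that serves as a common laboratory background. Injured flies of both sexes received a single strike in the HIT device, which throws a vial of flies against a pad, and their brains were dissected 1, 2 or 4 hr later. Control flies were not struck. Every brain, controls included, was then exposed in culture medium to near-infrared (NIR) light of 750 nm for 2 hr at 100 mW/cm2 before RNA was taken, and the 16 groups of strain, sex and condition held 3 libraries each. In these 3′ tag libraries tau was not lower in libraries labelled Tau-KO (91.6 to 256 normalized read count, CPM, scaled to the library total) than in w1118 libraries (62.1 to 200 CPM), with a log2 fold change of 0.07 (SE 0.12, edgeR quasi-likelihood adjusted p = 0.885). Which stretch of tau was deleted is not known from the labels, and a tag outside it would not check the label.

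Counts on genes ranged from 39517 to 1668925 per library, and 2 libraries lay under 100000, the first replicate of the Tau-KO male controls with 39517 and the third of the w1118 males at 1 hr with 59781. One library stood apart. The second replicate of the w1118 females at 2 hr had a median correlation of 0.678 with the other 47 libraries over all tested genes, against 0.798 or more for each of the others, and its summed muscle marker level was 231 CPM, against at least 2572 CPM elsewhere. Although it held 1547843 counts, 31 of the 75 CR genes had no count in it, and 40 had their lowest level there. Neuron and glia marker lists were detected in full in the brains (6 of 6 and 7 of 7 genes), and so were those of photoreceptors, fat body, muscle and hemocytes. The median summed levels of photoreceptor (7801 CPM), fat body (7064 CPM) and muscle markers (3527 CPM) were above those of neurons (2348 CPM) and glia (1861 CPM). At 0 in all libraries were 1 of 8 gut, 3 of 6 ovary and 2 of 7 testis markers.

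The annotation placed the 75 genes in several kinds. RefSeq classed 63 of them as long noncoding RNA, 7 as antisense RNA, 1 as a short noncoding RNA and 3 as protein coding, while CR40766 had no match. The 3 that are now called coding are CR44404, which is IBIN (Induced by Infection), CR43051 and CR45045. CR31451 is now named mimi and CR43283 cherub, a long noncoding RNA known from dividing neural stem cells and brain tumours of larvae. In the BDGP6 annotation, whose coordinates differ from those of dm3 on which the reads were counted, 74 could be placed, with 19 genes on 3R, 15 on X, 13 each on 2L and 3L, 11 on 2R and 3 on the small chromosome 4. No coding gene overlapped 40 of them, 24 overlapped one on the opposite strand only, and 10 lay on the strand of a coding gene. The sources used here do not say whether counting used strand, so for the 14 genes that share an exon with a coding gene, reads of the pair may not be told apart. Gene length ranged from 93 to 72344 bases, with a median of 1600.

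A single gene dominated the counts. CR31451 (mimi, chromosome 3R from 23983503 to 23985065), which overlaps mir-9381, held 45.0% of the counts of the 75 genes and averaged 3156 ± 880 CPM (SD, n = 48), with a lowest value of 1850 CPM and a highest of 5838 CPM. It was followed by CR43701 (567 ± 266 CPM) and CR40469 (478 ± 163 CPM), whose ranges overlapped over most of their extent. CR42862, CR44832 and CR45018 averaged 208 ± 120, 205 ± 47 and 199 ± 59.3 CPM and did not differ beyond their spread, and neither did CR43627 (132 ± 122 CPM), CR40766 (110 ± 59.3 CPM), CR43604 (100.2 ± 34.1 CPM) and CR43651 (96.4 ± 32.9 CPM). Since 1 tag is expected per transcript in a 3′ library, these levels were not divided by gene length. In all, 9 of the 75 genes averaged over 100 CPM, 33 lay between 20 and 100 and 33 under 20, down to 7.28 ± 8.44 CPM for CR43960. The depth sets what this can show, since 10 CPM is only a handful of counts in most libraries, and 19 of the 75 genes had a count in every library.

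**Figure D1:**
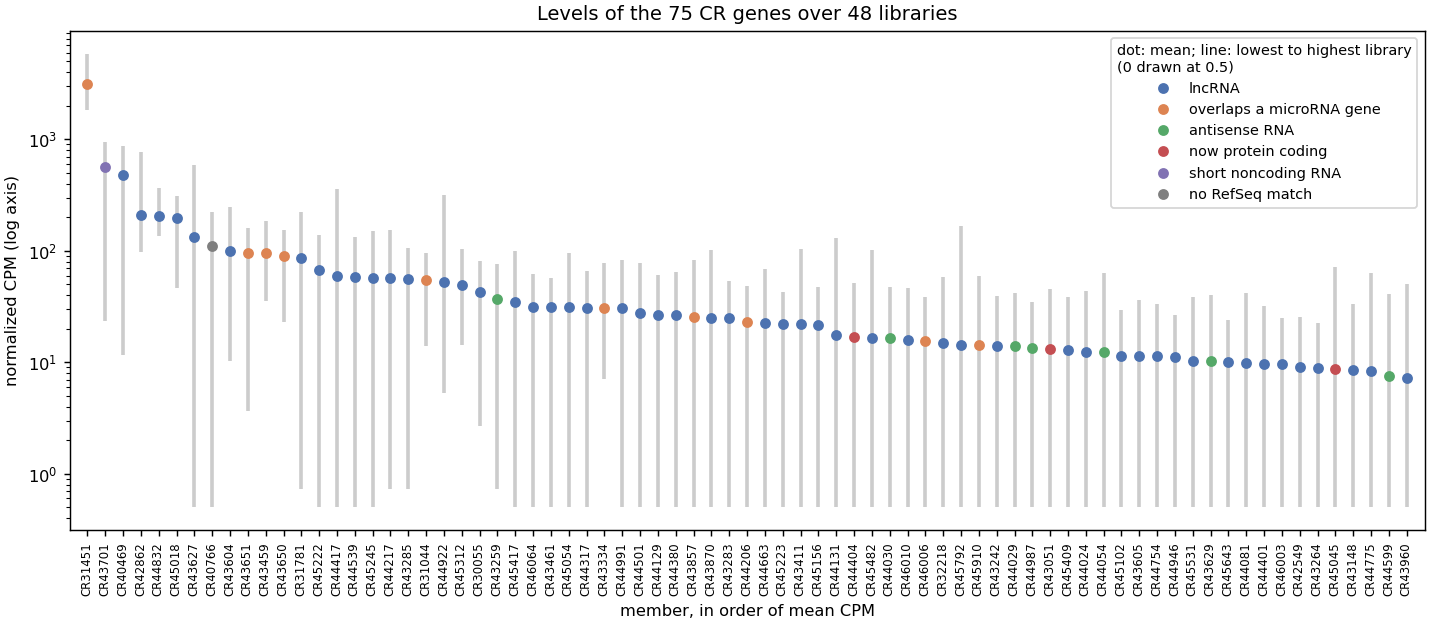
Mean normalized CPM (log axis) of the 75 CR genes in order of their means over 48 libraries, coloured by annotated kind, with a line from the lowest to the highest library; a value of 0 is drawn at 0.5. CR31451 stands above the rest at 3156 CPM, and 33 genes average under 20 CPM.

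The spread between libraries of 1 group differed widely among the 72 genes that passed the filter on low counts. Their biological coefficient of variation, the relative spread that edgeR estimates beyond counting noise, had a median of 0.615, against 0.451 over all 5821 genes tested, while their median mean level was 4.53 on the log2 CPM scale, against 5.12 for all genes. CR44832 varied least at 0.225 and CR43627 most at 1.19. The 10 genes that overlap microRNA genes had a median coefficient of 0.363 and the antisense RNAs one of 0.677, but the first are also higher (median of their means 42.7 CPM) than the second (13.4 CPM).

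The microRNA precursors spanned a wide range of levels. After CR31451 came CR43651 (mir-14, 96.4 CPM), CR43459 (mir-277 and mir-34, 95.9 ± 27.8 CPM) and CR43650 (mir-8, 89.6 ± 28.6 CPM), which did not differ beyond their spread. CR31044 (mir-279 and mir-996) averaged 54.8 ± 19.1 CPM and CR43334, which holds the growth-promoting microRNA bantam, 30.7 ± 15.5 CPM. CR43857 (mir-275), CR44206 (mir-184), CR46006 (mir-276a) and CR45910 (mir-1000, in an intron of msi on the opposite strand) averaged between 14.2 and 25.3 CPM. A 3′ tag counts the polyadenylated host transcript and not the mature microRNA.

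The order of many of these genes across libraries followed the share of a library's reads that lay outside annotated genes. This share ranged from 2.65 to 7.92% of reads, and the relation was looked for after the values had been seen. It was computed for the 72 genes with this share and with the logarithm of the gene counts, 144 relations in all, with 100000 permutations each and two-sided p-values adjusted by Benjamini-Hochberg over the 144. Both Pearson and Spearman values passed for 32 genes that were higher in libraries with a larger share and for 10 that were lower. The permutations were not run over all genes, so such counts have no background, and only r itself is compared. Over all 5821 genes tested, r exceeded 0.5 in 16.7%, against 21 of the 72 CR genes (29.2%), and lay under -0.5 in 22.0%, against 5 of the 72 (6.94%). The median r was 0.29 for the CR genes and -0.09 for all genes. With the logarithm of the gene counts, 10 of the 72 passed as higher in deeper libraries and 18 as lower. There r exceeded 0.5 in 5 of the 72 (6.94%), against 21.2% of all genes. It lay under -0.5 in 7 (9.72%), against 8.19%. The median r was -0.11 for the CR genes and 0.18 for all genes.

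CR43701 had the highest level among the genes with this relation. It is a short noncoding RNA of 93 bases (chromosome 3L from 1488739 to 1488831) in an intron of stet, on the opposite strand. It lay between 23.4 and 306 CPM (median 170) in the 12 libraries with the smallest share (2.65 to 4.39%), and between 658 and 952 CPM (median 804) in the 12 libraries with the largest (6.27 to 7.92%). These ranges did not overlap. Pearson's r over 48 libraries was 0.87 and Spearman's rho 0.88 (permutation p = 1e-05, the smallest that 100000 permutations can give, and adjusted p = 6.9e-05 and 5.0e-05). Without the 2 libraries farthest from the median share r was 0.85, and it was 0.86 in Tau-KO libraries, 0.90 in w1118 libraries and 0.86 on deviations from group means. Within the 24 libraries with the lower shares r was 0.90, and within the upper 24 it was 0.34.

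CR40766 and CR43627 followed the same order. CR40766, for which no annotation was found, lay between 0 and 65.3 CPM in the 12 libraries with the smallest share and between 114 and 225 CPM in the 12 with the largest (r = 0.87, rho = 0.86). CR43627 (chromosome 3L, 1844 bases, no coding gene overlapped) lay between 0 and 38.2 CPM and between 53.1 and 584 CPM in the same libraries (r = 0.86, rho = 0.84). Each had an adjusted permutation p of 6.9e-05 for r, and neither pair of ranges overlapped. Within the upper 24 libraries r was 0.40 for CR40766 and -0.06 for CR43627. CR44501, CR44217, CR45018, CR43857, CR45222 and CR43459 followed with r between 0.69 and 0.78.

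A smaller set ran the other way. CR44922 (chromosome 3R, 1000 bases from Sfxn1-3) had an r of -0.80, CR42862, which shares an exon with CG33229, one of -0.75, and CR43411, in an intron of osp on the opposite strand, one of -0.75, each with an adjusted permutation p of 6.9e-05. CR42862 ran from 154 to 770 CPM in the 12 libraries with the smallest share and from 97.3 to 185 CPM in the 12 with the largest, so that these ranges overlapped only in part. The bantam host CR43334 had an r of -0.58. CR31451, the gene with the most counts, had an r of -0.01 (adjusted p = 0.956).

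CR40469 rested on a single library. This RNA of 214 bases, near the end of chromosome X, had an r of -0.10 (adjusted p = 0.563) but a rho of -0.69 (adjusted p = 5.0e-05), since its level was 11.7 CPM in the library that stood apart, where the share is smallest, and 209 CPM or more in the other 47. Without that library r was -0.79, and without the 2 libraries farthest from the median share it was -0.83. In the Tau-KO libraries alone r was -0.93.

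**Figure D2:**
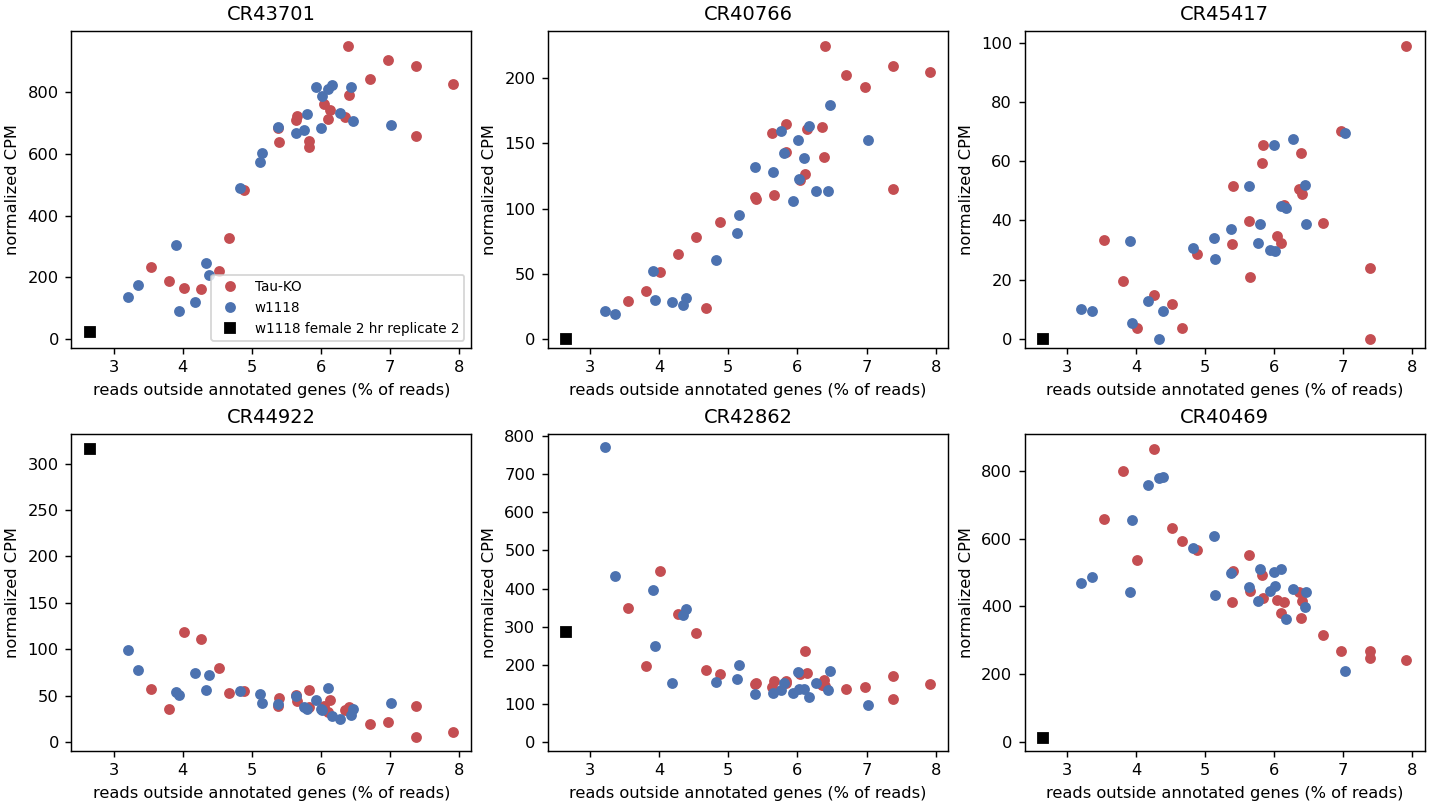
Normalized CPM of 6 CR genes against the share of a library's reads outside annotated genes (%), 1 point per library, with Tau-KO and w1118 in 2 colours and the library that stood apart as a black square. CR43701 lies at or under 306 CPM in the 12 libraries with the smallest share and at or over 658 CPM in the 12 with the largest, and CR40469 is lower at larger shares except in that 1 library.

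Other measures moved along with this share, and their part in the relation was not tested. Deeper libraries had a smaller share (r = -0.78 between the share and the logarithm of gene counts over 48 libraries). With that logarithm CR43701 had an r of -0.55 and CR40766 one of -0.58. The summed level of the 6 neuron markers, which ranged from 1494 to 2955 CPM, had an r of 0.87 with it, that of the 7 glia markers (1426 to 2566 CPM) 0.59, and that of the 5 hemocyte markers (38.0 to 181 CPM) 0.49, while the 8 muscle markers had 0.21, the 10 photoreceptor markers 0.10, the 7 fat body markers 0.26 and the 8 gut markers 0.23. The testis and ovary lists were at or near 0 (at most 17.6 and 6.55 CPM). In bulk brains, fewer cells of a type and less RNA per cell cannot be told apart.

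**Figure D3:**
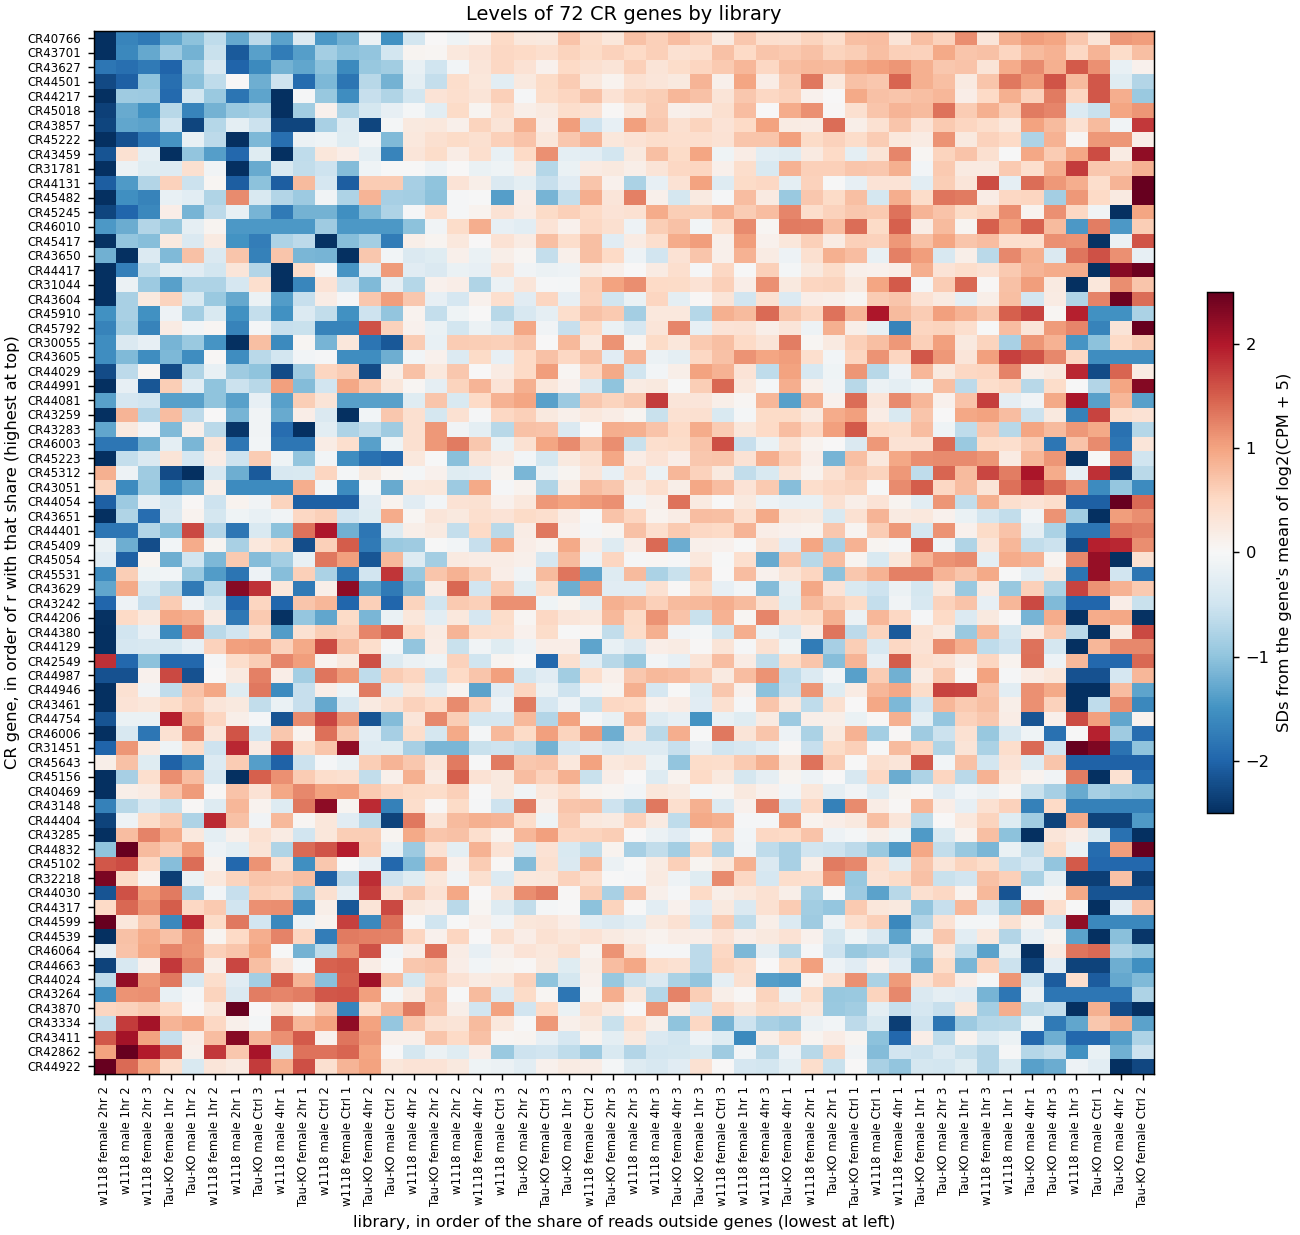
Levels of the 72 tested CR genes in 48 libraries, as SDs from each gene's mean of log2(CPM + 5), with libraries in order of the share of reads outside genes and genes in order of r with it. The genes at the top are low in the libraries at the left and high at the right, the few at the bottom the reverse, and the library at the far left is low for most genes.

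Between the strains no CR gene passed. In the fit of all 48 libraries, 0 of 72 genes passed (adjusted p under 0.05 and log2 fold change beyond 1 in either direction) for Tau-KO minus w1118 averaged over the 8 groups of each (edgeR quasi-likelihood test, background 0% of 5821 genes). At an unadjusted p under 0.05 with the same fold, 1 of 72 passed, against 1.49% of all genes. DESeq2 gave 0 at an adjusted p as well. The median log2 fold change of the 72 was 0.08, against -0.03 for all genes, and 40 of 72 were positive. The 1 gene was CR45792 (chromosome X, 727 bases), at 20.4 ± 32.3 CPM in Tau-KO and 8.24 ± 6.96 CPM in w1118 libraries (SD, n = 24 each), with a log2 fold change of 1.26 (SE 0.39, edgeR adjusted p = 0.608). Its Tau-KO mean leans on 1 library, the second female control with 167 CPM, while the other 23 Tau-KO libraries lay between 0 and 37.1 CPM.

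Within sexes and conditions the strains gave few candidates too. At the unadjusted threshold, 2 of 72 genes passed in uninjured females (background 4.28%), 2 in uninjured males (2.87%), 1 in injured females (0.928%) and 4 in injured males (5.15%), and 0 at an adjusted p in each (background 0%). In uninjured males CR43051, now a coding gene in an intron of bun on the opposite strand, had 0, 1.19 and 0 CPM in Tau-KO libraries (0, 1 and 0 counts), against 9.82, 9.21 and 9.64 CPM in w1118 libraries. These did not overlap (log2 fold change -3.74, SE 1.70, edgeR adjusted p = 0.999), but how many of all genes separated in this way was not counted. The first of these Tau-KO libraries is the one of 39517 counts. There 3 counts would be 57.6 CPM, so its 0 cannot show a level below w1118. In injured males the 4 genes, CR43411, CR43870, CR44404 and CR43629, had log2 fold changes between -2.12 and -1.37 (edgeR adjusted p between 0.398 and 0.484). The strain effect differed between the sexes for 0 of 72 genes at an adjusted p (2 unadjusted, background 1.39%), and between injured and uninjured for 0 (1 unadjusted, 1.89%).

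No CR gene passed between the sexes. Females minus males gave 0 of 72 at an adjusted p in both strains by edgeR and by DESeq2 (background 0%), and at the unadjusted threshold 1 of 72 in Tau-KO (CR44404, IBIN, log2 fold change 1.13, background 1.51%) and 0 in w1118 (background 0.533%). IBIN encodes a small peptide induced by infection. Of 26 named noncoding RNA genes, a list that holds roX1 and roX2, 10 were tested here. Between the sexes 0 of them passed the unadjusted threshold in either strain. These comparisons thus did not bear out the sex labels, which were not checked otherwise.

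For injury in w1118, 70 genes passed the filter, and 0 of them passed at an adjusted p at any of the 3 times or in their average, in either sex, by edgeR or by DESeq2 (edgeR background 0% at each time in both sexes and in the male average, 0.0183% in the female average). At the unadjusted threshold, in females, 1 gene passed at 1 hr (background 0.749%), 4 at 2 hr (5.40%) and 1 at 4 hr (1.15%), and in males 2 at 1 hr (1.70%) and 0 at 2 and 4 hr (0.913% and 0.621%). The average over times had 2 genes in females (1.81%) and 0 in males (0.694%). Leaving out the library that stood apart changed the count in females at 2 hr to 2 (97 of all genes, against 296 with it), and leaving out the first replicate of the same group, which keeps that library, changed it to 22 (1157 of all genes). In that comparison 12 of 70 genes had a positive log2 fold change and their median was -0.52, against -0.02 over all genes.

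Among the w1118 genes past the unadjusted threshold at single times, those named next had injured and control libraries that did not overlap. How many of all genes separated in this way was not counted. Past the threshold were 4 of 70 genes in females at 2 hr (background 5.40%) and 2 of 70 in males at 1 hr (1.70%). CR46006, the mir-276a host, averaged 4.11 ± 4.29 CPM in females at 2 hr and 24.6 ± 4.04 CPM in their controls (SD, n = 3 each), a log2 fold change of -2.78 (SE 0.78, edgeR adjusted p = 0.505), and 1 of the 3 injured libraries is the one that stood apart. In males at 1 hr CR44024 averaged 26.4 ± 15.1 CPM and in their controls 6.99 ± 4.71 CPM (log2 fold change 2.07, SE 0.80), and CR44987, which lies antisense to dbr and galectin, 3.69 ± 6.39 and 23.3 ± 5.27 CPM (-2.64, SE 1.13), both with an edgeR adjusted p of 1.00. CR45045 in females at 1 hr rested on 1 library, the second replicate with 71.4 CPM.

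In the Tau-KO libraries 63 genes passed the filter. None passed at an adjusted p at a single time (edgeR, background 0% in each; DESeq2 gave 1 in males at 2 hr, with 0.0199% of all genes, and 4 in males at 4 hr, with 2.89%), and the average over times had 0 in females (background 0%) and 1 in males, CR45417, where 3 of 5015 genes passed (0.0598%). At the unadjusted threshold females had 1 at 1 hr (background 4.11%), 6 at 2 hr (4.03%) and 2 at 4 hr (2.21%), and males 3 at 1 hr (3.21%), 8 at 2 hr (5.48%) and 10 at 4 hr (18.6%). The share among the 63 was thus 9.52% in females at 2 hr, 12.7% in males at 2 hr and 15.9% in males at 4 hr, the last under its background. These counts moved by over 1.5 times with single libraries and settings. With 1 library left out they ran from 0 to 8 in females at 2 hr, from 4 to 13 in males at 2 hr and from 9 to 15 in males at 4 hr, and under the other alternatives from 1 to 7, from 3 to 13 and from 4 to 15. The averages had 4 genes in females (4.27%) and 8 in males (9.49%). Comparisons with 1 group of controls share those 3 libraries.

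**Figure D4:**
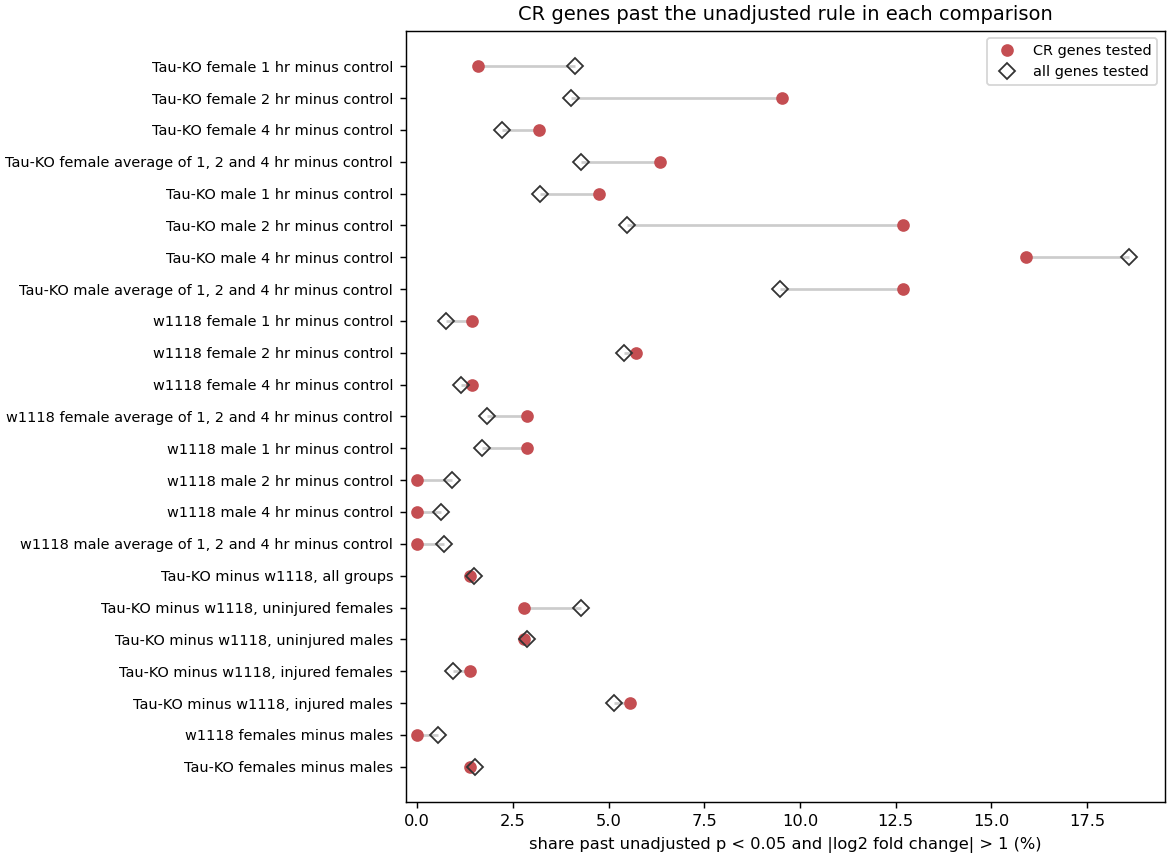
Share (%) of the tested CR genes (filled circles) and of all tested genes (open diamonds) that passed the unadjusted threshold (p under 0.05, log2 fold change beyond 1 in either direction) in each comparison. The CR genes reach 15.9% in Tau-KO males at 4 hr, where all genes reach 18.6%, and 12.7% at 2 hr, where all genes reach 5.48%.

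CR45417 is a long noncoding RNA of 501 bases on chromosome 3L from 6728201 to 6728701, 99 bases from dikar, and overlaps no coding gene. In Tau-KO males it had 49.0, 19.5 and 39.9 CPM at 1 hr, 32.2, 32.2 and 62.8 CPM at 2 hr and 39.3, 23.9 and 70.3 CPM at 4 hr, against 0, 3.58 and 3.74 CPM in the controls. Every injured library was above every control library, but how many of all genes separated in this way was not counted. At the unadjusted threshold 9.49% of all genes passed in the average of the 3 times. The controls held 0, 3 and 4 counts, and the one at 0 is the library of 39517 counts, in which 3 counts would already be 57.6 CPM, so it says little about the level.

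The average of the 3 times over the control had a log2 fold change of 3.42 (SE 0.67, edgeR quasi-likelihood adjusted p = 0.0446), and an exact permutation test on the CPM of the 9 injured and 3 control libraries gave p = 0.0091 (two-sided, 220 splits). That test takes the 39517-count control at 0 as a low value, and without it the exact permutation p over 9 injured and 2 control libraries was 0.0364 (two-sided, 55 splits, the smallest possible p being 0.0182). Since CR45417 was named with earlier results of these data known, none of its p-values is independent support. Summed over libraries there were 158 counts in injured and 7 in control brains, or 37.4 and 3.57 CPM, with an exact Poisson 95% interval of 1.44 to 7.36 CPM for the controls that covers counting error only. At the single times the log2 fold changes were 3.2, 3.48 and 3.56, with edgeR adjusted p of 0.248, 0.280 and 0.0715. The call ended with replicate 1, and with replicate 3, left out of every group (log2 fold change 3.38 and 3.20, adjusted p = 0.230 and 0.999). It also ended with the replicate number as a block (3.45, adjusted p = 0.0530) and with the share of reads outside genes as a covariate (log2 fold change 2.72, adjusted p = 0.152), while without the 39517-count library alone the adjusted p was 0.0433.

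The level of CR45417 in the other groups overlapped that range. Tau-KO females had 45.2, 99.0 and 51.7 CPM as controls, 50.6, 33.2 and 65.6 CPM at 1 hr, 14.7, 28.6 and 20.9 CPM at 2 hr and 34.8, 11.9 and 59.3 CPM at 4 hr. At 2 hr all 3 libraries lay under the controls (log2 fold change -1.58, SE 0.55, edgeR adjusted p = 0.720). How many of all genes did so was not counted. In w1118 the 24 libraries ran from 0 to 69.5 CPM, with values at 0 also in a control male library of 1165793 counts and in the library that stood apart. In Tau-KO females an exact permutation test of the 9 injured against the 3 control libraries gave p = 0.0727 (two-sided).

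The share of reads outside genes was 7.38, 4.67 and 4.01% in the Tau-KO male controls, 3.81 to 6.40% in the males at 1 hr, 5.38 to 6.39% at 2 hr and 6.71 to 7.38% at 4 hr. The library with 3.81%, below every control, had 19.5 CPM of CR45417, the lowest value of the 9 injured libraries. Across the 48 libraries the r of CR45417 with this share was 0.59 (rho 0.64, adjusted permutation p = 6.9e-05 and 5.0e-05), with 0.34 in Tau-KO and 0.82 in w1118 libraries. In other groups, 9 libraries lay below every injured Tau-KO male library for CR45417. The part of the share in the difference was not tested beyond the fit with it as a covariate. The summed neuron markers were at 1791 to 2893 CPM in the injured males and 1755 to 2037 CPM in their controls, the glia markers at 1546 to 2252 and 1556 to 1845 CPM. The neighbour dikar had a log2 fold change of 0.54 (SE 0.31, edgeR adjusted p = 0.406) in the same average.

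**Figure D5:**
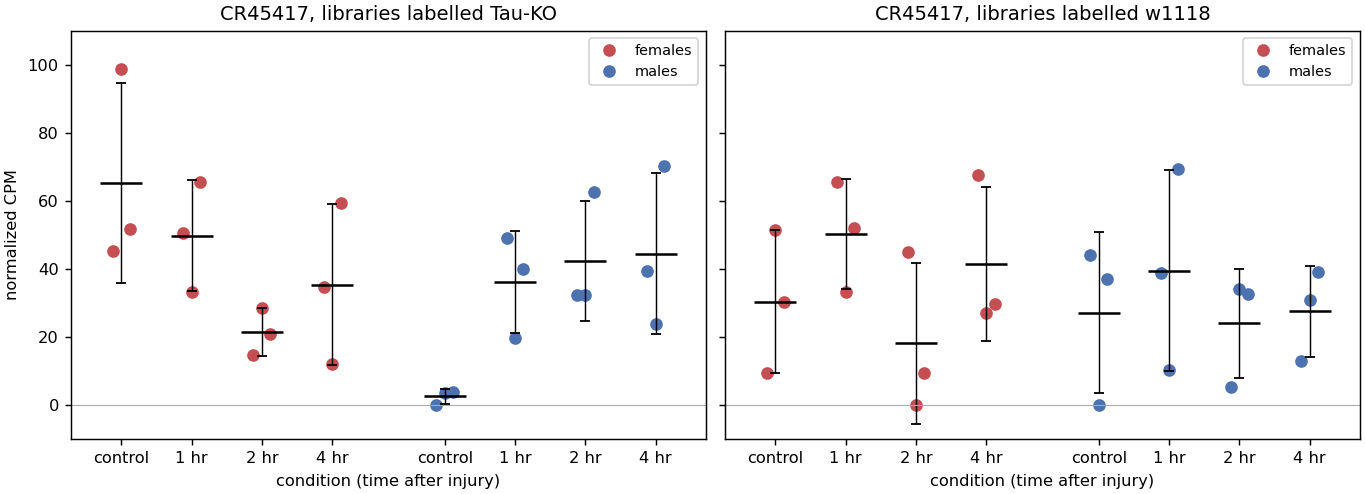
CR45417 in normalized CPM by strain, sex and condition, 1 point per library, with the mean (line) and SD (bar) of the 3 libraries of a group. The 3 Tau-KO male controls lie between 0 and 3.74 CPM and the 9 injured Tau-KO males between 19.5 and 70.3 CPM.

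Other genes of the Tau-KO males lay apart at 4 hr without passing at an adjusted p. CR40766 had 203, 210 and 193 CPM at 4 hr, against 115, 23.9 and 51.4 CPM in the controls, a log2 fold change of 2.10 (SE 0.62, edgeR adjusted p = 0.0903). CR44922 had 19.6, 5.31 and 21.1 CPM, against 38.4, 52.5 and 119 CPM (-2.45, SE 0.62, adjusted p = 0.0784), and CR42862 had 138, 112 and 144 CPM, against 173, 189 and 447 CPM (-1.15, SE 0.40, adjusted p = 0.115), with CG33229, whose exon it shares, at 0.41 (SE 0.47). CR43870 averaged 9.94 ± 6.32 CPM at 4 hr and 32.3 ± 9.38 CPM in the controls (SD, n = 3 each, edgeR adjusted p = 0.184). The groups did not overlap for these 4 genes, but how many of all genes separated in this way was not counted. At the unadjusted threshold 18.6% of all genes passed in this comparison. The first control is the library of 39517 counts, and its values for CR44922 and CR43870 rest on 2 counts each. Each of the 4 genes also had a correlation with the share of reads outside genes across the 48 libraries. That share was 6.71 to 7.38% at 4 hr and 7.38, 4.67 and 4.01% in the controls, and in the fit with it as a covariate the log2 fold changes were 0.65 for CR40766, -1.53 for CR44922, -0.40 for CR42862 and -1.18 for CR43870 (edgeR adjusted p between 0.795 and 0.937).

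CR43051 had 54 counts in the 9 injured Tau-KO male libraries, against 1 count in the 3 controls. The ratio of the summed levels was 25, with a counting interval of 4.31 to 1006 (95%, exact) that covers counting error only. Between libraries, the average of the 3 times had a log2 fold change of 4.39 (SE 1.53, edgeR adjusted p = 0.230). In CPM CR43051 had 20.2, 1.03 and 12.2 at 1 hr, 16.1, 10.7 and 16.2 at 2 hr and 45.8, 2.65 and 35.2 at 4 hr, against 0, 1.19 and 0 in the controls. The groups overlapped at 1 hr and did not at 2 and 4 hr (edgeR adjusted p = 0.686 and 0.102), but how many of all genes separated in this way was not counted. At 4 hr the lowest injured library and the highest control held 1 count each. The first control, at 0, is the library of 39517 counts and says little about the level. The host of CR43051, bun, had a log2 fold change of 0.26 (SE 0.28) at 4 hr. At 2 hr CR45910, the mir-1000 host, had 34.9, 6.14 and 26.3 CPM, against 0, 2.39 and 4.68 CPM in the controls (log2 fold change 2.59, SE 1.15, edgeR adjusted p = 0.686). Without the 39517-count control, 9 of the CR genes passed at an adjusted p at 4 hr, CR45417, CR40766, CR44217, CR45222 and CR46010 as higher and CR44922, CR43411, CR42862 and CR40469 as lower, while 9.94% of 5302 genes passed there.

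In Tau-KO females several differences leaned on 1 control library. CR45792 had 5.33, 8.35 and 8.35 CPM at 2 hr, against 11.3, 167 and 9.05 CPM in the controls (log2 fold change -3.01, SE 0.85, edgeR adjusted p = 0.720). CR44417, in an intron of Mapmodulin on the opposite strand, had 65.3, 31.0 and 48 CPM at 2 hr, against 48, 355 and 37.5 CPM. The second control, at 167 and 355 CPM for these genes, is also the library with the largest share of reads outside genes (7.92%). No other library was as high for CR44417, and the second Tau-KO male at 4 hr came nearest with 303 CPM. CR45409 averaged 4.44 ± 3.81 CPM in females at 4 hr and 18.4 ± 6.23 CPM in their controls (edgeR adjusted p = 0.976).

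The injury average was also compared between strains and sexes. Tau-KO minus w1118 gave 0 of 72 genes at an adjusted p in both sexes by edgeR (background 0%), and at the unadjusted threshold 0 in females (3.49%) and 6 in males (6.80%). Females minus males gave 0 of 70 in w1118 (background 0%, 2 unadjusted against 1.64%) and 1 of 63, CR45417, in Tau-KO (0.0399%, 12 unadjusted against 18.4%).

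For comparison, a list of 26 noncoding RNA genes with names (roX1, roX2, Hsromega, the Uhg host genes and others) had 8 to 10 members that passed the filter in a fit. At the unadjusted threshold, no comparison had more than 2 of them. Between the strains in injured males 2 of 10 passed (background 5.15%). In w1118 females at 2 hr 1 of 9 was higher and 1 lower (5.40%). For the injury average in Tau-KO females minus males 1 of 8 was higher and 1 lower (18.4%). At an adjusted p 0 of the listed genes passed in any comparison.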

How the data were processed

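RNA of single NIR-exposed brains was made into QuantSeq 3′ FWD libraries. Per the labels and methods, the authors called bases with CASAVA 1.8.2, aligned with STAR 2.4 to dm3 and counted reads per gene with HTSeq. The deposited values are whole counts without normalization, from 39517 to 1668925 per library. The strand setting and annotation release are not given in the sources used here. The deposited comparison tables hold fold changes and p-values of the authors' edgeR 3.22.3 and were not used.

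The entries that name no gene (23.1 to 52.8% of reads) stayed out of library sizes. Genes were filtered by filterByExpr, normalized with TMM factors, and fitted in edgeR 4.0.16 (R 4.3.3; glmQLFit, glmQLFTest) with a mean per group: strain and sex over 48 libraries (72 of 75 genes passed the filter), injury within w1118 (70) and Tau-KO (63). Calls needed an adjusted p under 0.05 (Benjamini-Hochberg over all genes) and an absolute log2 fold change over 1, or an unadjusted p under 0.05. CPM are divided by TMM-scaled sizes. Log2 CPM for relations used a prior count of 2. The fit was tested on simulated data.

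Named genes were CR45417, the 10 highest, those called, up to 3 per direction with unadjusted p under 0.05 and libraries that did not overlap, and those nearest the limit of 240 counts; CR44417, CR40469 and those in the account of the outside share were singled out after their values were seen. Members, lists and tests were chosen with earlier results of these data known. The difference contrasts, the covariate, the relations, the fits without the library that stood apart and the permutation test without the 39517-count control were added after seeing the data. Names came from RefSeq (74 of 75 matched). Nothing says whether brains of a group came from separate vials, so p-values measure the spread between these libraries. The paper describes placing the brains of a condition in a petri dish for the exposure. Libraries of a group may thus share a dish, and dish and condition could then not be told apart. Within groups all 48 pairs differed more than counting noise would give (chi-square over its degrees of freedom at least 1.99). Replicate numbers deviated together in all 3 pairs (r over 0.1) only in w1118 males at 1 hr among the injury comparisons (0.47, 0.667 and 0.203), and, between the strains, in females at 1 hr (0.567, 0.754 and 0.52) and 4 hr (0.468, 0.53 and 0.199) and males at 1 hr (0.445, 0.729 and 0.385). In none of the strain comparisons or in w1118 males at 1 hr did the block change a call.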

Additional observations from a re-analysis of the deposited data

Results flagged for a closer look

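The injury average of CR45417 differed between the sexes in the Tau-KO libraries. The log2 fold change over the control was lower in females than in males (females minus males -4.36, SE 0.78, edgeR quasi-likelihood adjusted p = 0.0435), and 2 of 5015 genes (0.0399%) passed in this contrast. It is given here because the difference itself was tested and passed. All 9 injured males lay above their 3 controls, whereas the injured females ranged from 11.9 to 65.6 CPM and their controls from 45.2 to 99.0 CPM. How many of all genes separated as in the males was not counted. One of the male controls is the library of 39517 counts with no count of CR45417, where 3 counts would be 57.6 CPM, so it cannot show a level below the injured males. With a replicate number left out the difference ran from -4.57 to -4.09 and the adjusted p from 0.0760 to 0.496. With the replicate block they were -4.47 and 0.0265, and with the share of reads outside genes as a covariate -3.11 and 1.00. CR45417 was known from earlier results of these data when this was tested, and the contrast was added afterwards. Between females and males no gene of any kind passed at an adjusted p in either strain. The sex labels were thus not borne out by those comparisons.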

How the results depend on the processing

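Counts of CR genes at an adjusted p under 0.05 were computed under alternatives 323 times over 25 comparisons and moved by more than 1.5 times in 15. The comparisons of the injury average that were added after seeing the data are not in these numbers. Without a filter on low counts there was 1 gene (against 0) for the strains in injured males. Without that filter Tau-KO males had 1 and 1 at 1 and 2 hr and 6 at 4 hr (3.41% of all genes). Their average then had 4 (against 1, 1.08%) and the Tau-KO female average 2 (against 0, 0.557%). The added comparison of Tau-KO females minus males then had 8 (against 1, 3.14%). With DESeq2's test there were 1 at 2 hr and 4 at 4 hr in Tau-KO males (against 0; 0.0199% and 2.89% of all genes). Without libraries under 100000 counts there were 9 in Tau-KO males at 4 hr (9.94% of all genes). In the added comparison of Tau-KO females minus males CR45417, CR40766, CR44922, CR45222 and CR46010 then passed (6.36% of all genes). With the replicate block and with the share of reads outside genes as a covariate the Tau-KO male average had 0. Leaving out replicates gave 0 to 6 in the Tau-KO male average and 0 to 9 at 4 hr. The cause was not tested. The replicate block changed no other call of a CR gene.

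With 1 replicate number left out, the log2 fold changes of the Tau-KO female average ran from -2.07 to 1.00 for CR44131, -2.20 to 0.49 for CR44417 and -2.68 to 0.24 for CR45792, turning positive without replicate 2. With 1 control library left out they ran from -2.88 to 0.24 for CR45792 at 1 hr and, for CR44417, from -2.06 to 0.19 at 2 hr and -2.13 to 0.11 at 4 hr, turning positive without the second control. The difference of the injury average of CR45910 between Tau-KO and w1118 males ran from -0.031 without replicate 1 to 4.74. The r of CR40469 with the share was 0.24 in w1118 libraries and 0.053 on CPM without TMM scaling. Depth limits all of this, since in the shallowest library 3 counts are 57.6 CPM, above the mean of most of these genes.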
